A study of Homo sapiens with 2 samples.

Results

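The transcripts described here are those of the proteasome, taken as every GENCODE release 44 protein-coding gene whose name is PSMA, PSMB, PSMC, PSMD, PSME, PSMF or PSMG followed by a number. This rule gave 48 of 20046 protein-coding genes. RBMS3-binding sites on the strand of these genes numbered 146, of 27706 in the whole list, and lay in 36 of the 48 genes. The sites come from CLIP-seq, in which ultraviolet light fixes a protein to the RNA it touches, on the human breast cancer line MDA-MB-231 with FLAG-tagged RBMS3 as the bait. The cells carried the tagged protein from a stably integrated lentiviral vector with an EF1a promoter, in addition to their own RBMS3. Both biological replicates, which form the only group, carried FLAG-tagged RBMS3 and were irradiated at 254 nm with 400 mJ/cm2. The source and cell line labels of replicate 2 read MDA-MB-232, whereas its title reads MDA-MB-231, and it was treated as the latter. No untagged or input library was analysed here.

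The proteasome is the protease that breaks down proteins marked with ubiquitin. Its 20S core is a barrel of stacked alpha rings (PSMA genes) and beta rings (PSMB genes, some of which carry the proteolytic sites). Its 19S cap holds a ring of ATPases (PSMC genes) that unfold substrates. The cap also holds non-ATPase subunits (most PSMD genes), some of which bind or remove ubiquitin. RBMS3 is an RNA-binding protein of the family of RBMS1, and it contacts AU-rich sequence in 3′UTRs. The poly(A) signal is the hexamer near the end of a transcript that directs cleavage and polyadenylation, most often AATAAA or ATTAAA in DNA letters.

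A site is a base at which sequenced RNA fragments (tags) carried a deletion, which reverse transcriptase can leave where the protein was crosslinked. Whether the deletion at a given site came from crosslinking was not tested. For each site the pooled tags that cover it and those with the deletion are given. Both replicates were pooled before sites were called, so no value has a replicate error, no test between samples was possible, and a site may rest on a single replicate. Library totals were not analysed here, so depth is given as the tags over each site. The 95% Wilson intervals printed below cover counting error only. Tags and deletions rise with the abundance of a transcript, which was not measured here, so strong binding and abundant RNA cannot be told apart. A gene without a site may lack binding, RNA or deletions that passed the filters used to call sites.

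The lead site of a gene was its 3′UTR site with the most deletions. Unless the representative transcript is named, a distance to an end is to the nearest annotated end at or downstream of the site. Ends upstream of a site were not counted. The 11 sequences that follow are shown because they hold the lead sites with the most deletions in each gene family that had any and in the whole set. Each is 29 bases of hg38, read 5′ to 3′ on the transcript strand, with the deleted base at position 15 and AATAAA or ATTAAA in capitals.
PSMA3: caattttcATTAAAtttttgtcttataac
PSMB1: tggatggttttgtttATTAAAagagaaac
PSMC2: gttaataaccaattcataaacaAATAAAt
PSMD14: caaAATAAAatacatttacagtctatgcc
PSME1: tgcctctcaggcacAATAAAtatagttat
PSMG2: gcaccaaatgtaaattttgtacAATAAAa
PSMA7: ctgagtgtcctacAATAAActtccgtatt
PSMB4: aagatagactcttcttttgtaaagtaaat
PSMB6: gtactgatgcaaaatttAATAAAgtttgt
PSMB5: tatttgttttactttcttggatgttaaca
PSMD12: acaaacatattccaatAATAAAagcagta

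These windows lie at chr14:58271977-58272005 on the plus strand (PSMA3), chr6:170535128-170535156 on the minus strand (PSMB1), chr7:103368112-103368140 on the plus strand (PSMC2), chr2:161411693-161411721 on the plus strand (PSMD14), chr14:24138925-24138953 on the plus strand (PSME1) and chr18:12725695-12725723 on the plus strand (PSMG2). The remaining windows lie at chr20:62136738-62136766 on the minus strand (PSMA7), chr1:151401893-151401921 on the plus strand (PSMB4), chr17:4798458-4798486 on the plus strand (PSMB6), chr14:23025876-23025904 on the minus strand (PSMB5) and chr17:67340511-67340539 on the minus strand (PSMD12). All of them are in 3′UTRs. A poly(A) signal is in capitals in 9 of the 11. The deleted base fell before it in PSMB1, PSMC2, PSMG2, PSMB6 and PSMD12, on it in PSME1 and PSMA7, and after it in PSMA3 and PSMD14. The AATAAA of PSMB4 starts 12 nt downstream of the deletion and runs past the printed bases. PSMB5 has neither hexamer within 25 nt of the deletion.

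The next 5 sequences are the lead sites with the most deletions among those with no AATAAA within 25 nt, apart from those already printed.
PSMB2: ctgatcataacgttcatATTAAAgtattg
PSME3: aaaaatacaggtactttgacctctttcta
PSMG3: ggaaatttcttttttATTAAAagcgaatg
PSMC4: aaaacctcattcccttttttctttaccca
PSMD7: agatacaATTAAAtggcttgatttttaag
They lie at chr1:35601595-35601623 on the minus strand (PSMB2), chr17:42843212-42843240 on the plus strand (PSME3), chr7:1567344-1567372 on the minus strand (PSMG3), chr19:39981375-39981403 on the plus strand (PSMC4) and chr16:74306261-74306289 on the plus strand (PSMD7). ATTAAA is printed in PSMB2, PSMG3 and PSMD7. In PSME3 it starts 17 nt upstream of the deletion, before the printed bases, and in PSMC4 neither hexamer lay within 25 nt.

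Most proteasome transcripts had at least 1 RBMS3 site in the 3′UTR. Such a site was found in 33 of 48 genes (68.8%), against 31.8% of all protein-coding genes. Any same-strand site was found in 36 genes (75%), against 37.6% of all. A 3′UTR site with 100 or more deletions was found in 21 genes (43.8%), against 13.5% of all. For comparison with other large housekeeping complexes, a 3′UTR site was found in 61 of 89 cytosolic ribosomal protein genes (68.5%) and in 8 of 9 genes of the chaperonin CCT (88.9%), which folds actin and tubulin. Both comparison lists were taken by gene name. They include paralogs without a 3′UTR site, such as RPL3L, RPL10L and CCT6B, and others with one, such as RPL22L1 and RPL26L1. These shares were not tested against each other.

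The sites were spread over all parts of the particle with 1 exception. Of the 14 constitutive 20S core genes, 12 had a 3′UTR site, all but PSMA6 and PSMB7. The 4 of 6 ATPase genes with a 3′UTR site were PSMC2, PSMC4, PSMC5 and PSMC6, and PSMC1 and PSMC3 had none. Of the 11 non-ATPase cap genes 10 had a 3′UTR site, and PSMD1 had none. Among 7 assembly chaperones, PSMD5, PSMD10, PSMG2 and PSMG3 had a 3′UTR site and PSMD9, PSMG1 and PSMG4 had none. Of the activators and the inhibitor, PSME1, PSME2 and PSME3 had a 3′UTR site and PSME4 and PSMF1 had none. The exception was the immune and tissue-restricted core genes, of which 0 of 5 had a site, against 37.6% of all protein-coding genes. The group is small, and this difference was not tested. These are PSMB8, PSMB9 and PSMB10, the interferon-inducible subunits of the immunoproteasome, PSMB11, the subunit of the thymus, and PSMA8, the subunit of the testis. Their RNA level in these cells was not measured here.

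**Figure D1:**
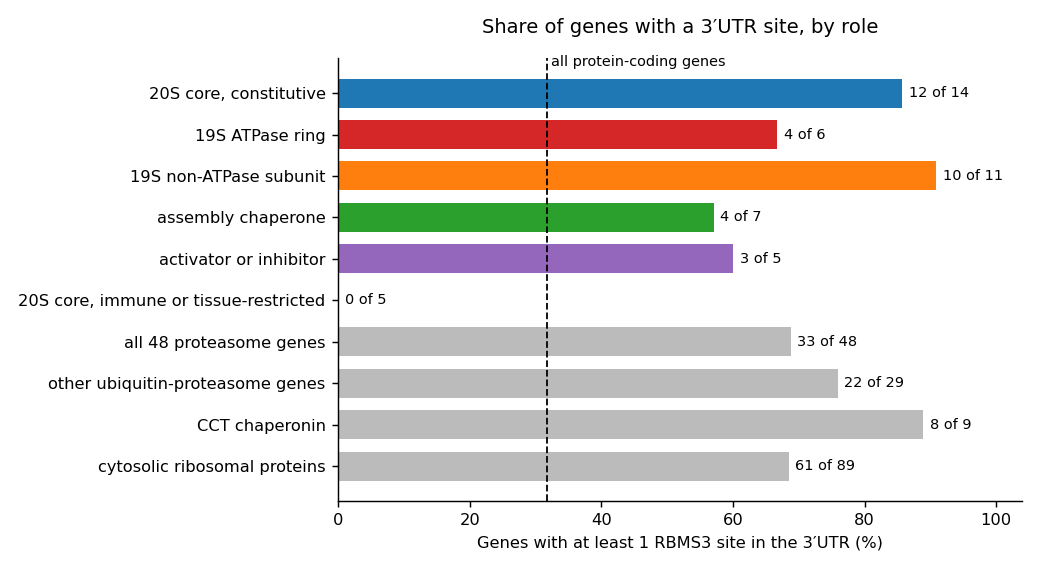
Bars give the percentage of genes in each group with at least 1 RBMS3 site in the 3′UTR, with the count of genes beside each bar, and the dashed line is the share of all protein-coding genes (31.8%). The non-ATPase cap genes (10 of 11) and the constitutive core genes (12 of 14) have the highest shares among the proteasome groups, and the immune and tissue-restricted core genes have no bar (0 of 5).

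Genes with and without a site had 3′UTRs of near-equal median length. The 3′UTR of the representative (Ensembl canonical) transcript had a median of 369 nt in the 33 genes with a 3′UTR site (range, 47 to 3729) and of 340 nt in the 15 without (range, 57 to 7169). PSME2, with the shortest 3′UTR of all 48 (47 nt), had a site, and PSMF1, the proteasome inhibitor, with the longest of all 48 (7169 nt), had none.

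Of the 146 sites, 137 lay in a 3′UTR (93.8%, 95% interval 88.7 to 96.7), against 84.8% of the 25045 sites in protein-coding gene bodies. There was no site in a 5′UTR. The 9 others were 2 in coding sequence, 1 in another exon and 6 in introns. The coding site of PSMA7 (chr20, position 62136929) had 41 deletions in 6849 tags (0.599%, 0.442 to 0.811) and lay 22 nt upstream of an annotated end of another PSMA7 transcript. Every other site outside a 3′UTR had deletions in most of its tags and few tags. The coding site of PSMD6 had 23 deletions in 23 tags and the exon site of PSMG2 16 in 16. In introns, PSMA5 had 19 deletions in 21 tags, PSMG4 18 in 18, PSMD14 15 in 15, PSMD9 12 in 12, PSMA3 10 in 10 and PSMB7 7 in 7. PSMB7, PSMD9 and PSMG4 had no site but these, which leaves 12 of 48 genes with no site at all.

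The 33 lead sites had a median of 194 deletions (quartiles, 67 and 313; range, 32 to 1112), against 82 over the lead sites of all 6372 genes with a 3′UTR site (quartiles, 49 and 174). Their median tag count was 5928, against 2866.5 over all genes. The median percentage of tags with the deletion was lower, 2.32% against 3.64%. A gene had a median of 4 sites in its 3′UTR, against 2 over all genes. By these medians the proteasome lead sites had more tags and more deletions, and a smaller share of tags with a deletion, than those of all genes. The lead sites of ribosomal protein genes (medians of 243 deletions, 14894 tags and 2.43%) and of the chaperonin genes (156 deletions, 11016 tags and 1.68%) lay on the same side of the medians of all genes.

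Among the lead sites of the core genes, those of PSMA3, an alpha ring subunit, and PSMB1, a beta ring subunit, had the most deletions. The lead site of PSMA3 had 1112 deletions in 33499 tags (3.32%, 3.13 to 3.52), 13 nt from the nearest annotated transcript end. The lead site of PSMB1 had 819 deletions in only 7224 tags (11.3%, 10.6 to 12.1), 22 nt from the end. At PSMA7, also an alpha subunit, tags were the most numerous, with 517 deletions in 46031 tags (1.12%, 1.03 to 1.22) 17 nt from the end. Of the core lead sites, that of PSMB1 thus had the highest percentage and that of PSMA7 the most tags. Summed over all 3′UTR sites of a gene the order was another, with 2152 deletions in PSMA7, 2087 in PSMA3 and 892 in PSMB1. PSMA2, another alpha subunit, had 269 deletions in 38254 tags (0.703%, 0.624 to 0.792) at chr7, position 42917428, 15 nt from an end. Its 5 sites also lie in an exon of an overlapping readthrough gene, so the tags of the 2 genes cannot be told apart.

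The beta subunits PSMB4 and PSMB6 had near-equal percentages. PSMB4 had 482 deletions in 8098 tags (5.95%, 5.46 to 6.49) 27 nt from an end. PSMB6, which carries the caspase-like activity, had 315 deletions in 5339 tags (5.9%, 5.3 to 6.56) 3 nt from an end, and its interval overlaps that of PSMB4. PSMB5, which carries the chymotrypsin-like activity and binds the drug bortezomib, had 289 deletions in 13731 tags (2.1%, 1.88 to 2.36) 32 nt from an end. PSMB3 had 127 deletions in 2351 tags (5.4%, 4.56 to 6.39) at chr17, position 38764187, 38 nt from the end. PSMB2 had 198 deletions in 10712 tags (1.85%, 1.61 to 2.12), 2065 nt from the next annotated end downstream. The core lead sites with the fewest deletions were in alpha subunit genes. PSMA1 had 111 in 5928 tags (1.87%, 1.56 to 2.25; chr11, position 14504892) 16 nt from the end, PSMA4 had 65 in 2800 tags (2.32%, 1.83 to 2.95; chr15, position 78549162) 14 nt from an end, and PSMA5 had 58 in 3729 tags (1.56%, 1.21 to 2.01; chr1, position 109401875) 25 nt from an end.

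In the ATPase ring, PSMC2 stood well above the other genes. Its lead site had 1089 deletions in 25788 tags (4.22%, 3.98 to 4.48), 733 nt from the nearest annotated end. PSMC6 had 230 deletions in 4099 tags (5.61%, 4.95 to 6.36; chr14, position 52727975) 15 nt from an end. PSMC4 had 57 in 935 tags (6.1%, 4.73 to 7.82) 19 nt from an end, and PSMC5 had 41 in 2005 tags (2.04%, 1.51 to 2.76; chr17, position 63832009) 9 nt from an end. The intervals of PSMC6 and PSMC4 overlap although their deletion counts differ.

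Among the non-ATPase cap genes, the lead site of PSMD14, the deubiquitinase of the cap, had the most deletions, 409 in 14250 tags (2.87%, 2.61 to 3.16), 8 nt from an end. The lead site of PSMD12 had more tags but fewer deletions, 282 in 28741 (0.981%, 0.874 to 1.1), 722 nt from the nearest end. Over all 3′UTR sites the sum was higher in PSMD12 (944 deletions) than in PSMD14 (837). PSMD2, a large scaffold subunit, had 200 in 11145 tags (1.79%, 1.56 to 2.06; chr3, position 184309030) 18 nt from an end. PSMD11 had 137 in 1540 tags (8.9%, 7.57 to 10.4; chr17, position 32481017) 7 nt from an end. The lead sites of the other 6 genes had 73 or fewer deletions. Of these, PSMD3 had 73 in 1638 tags (4.46%, 3.56 to 5.57; chr17, position 39997930), PSMD13 had 69 in 3056 tags (2.26%, 1.79 to 2.85; chr11, position 252961), and PSMD6 had 67 in 12472 tags (0.537%, 0.423 to 0.682; chr3, position 64010572). The last is the lowest percentage of any lead site. PSMD4, a ubiquitin receptor, had 47 in 6837 tags (0.687%, 0.517 to 0.913; chr1, position 151267444), and PSMD7 had 46 in 3972 tags (1.16%, 0.869 to 1.54). PSMD8 had the fewest tags and deletions of the 33 genes and the highest percentage, 32 in 205 tags (15.6%, 11.3 to 21.2; chr19, position 38383746). These 6 lead sites were 25, 5, 17, 15, 13 and 54 nt from an end, in the order named.

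The assembly chaperones that had 3′UTR sites help build the core (PSMG2, PSMG3) or the base of the cap (PSMD5, PSMD10). PSMG2 had 313 deletions in 11240 tags (2.78%, 2.5 to 3.11) 31 nt from the end, and PSMG3 had 95 in 1742 tags (5.45%, 4.48 to 6.62) 7 nt from an end. PSMD10, also known as gankyrin, had 264 in 4192 tags (6.3%, 5.6 to 7.07; chrX, position 108084243) 36 nt from the end. PSMD5 had 194 in 8400 tags (2.31%, 2.01 to 2.65; chr9, position 120816380), 327 nt from the end. Of the activators, PSME1 and PSME2, which form the ring that opens the core, differed in counts and had overlapping percentage intervals. PSME1 had 360 deletions in 22981 tags (1.57%, 1.41 to 1.74) 20 nt from an end and PSME2 had 65 in 3565 tags (1.82%, 1.43 to 2.32; chr14, position 24143372) 5 nt from an end. PSME3, the nuclear activator, had 130 in 4657 tags (2.79%, 2.36 to 3.3) 13 nt from an end.

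**Figure D2:**
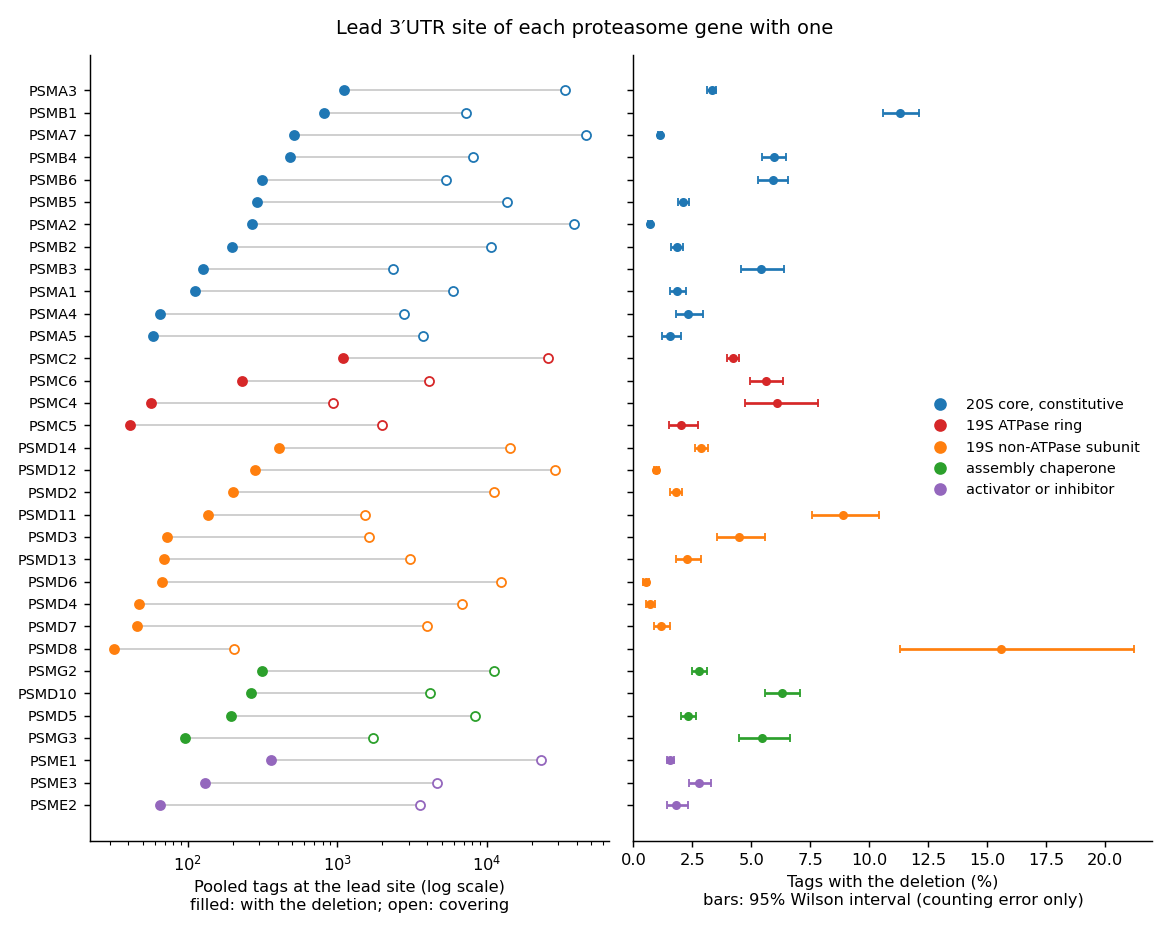
The left panel plots, on a log scale, the pooled tags that cover the lead 3′UTR site of each of the 33 genes (open points) and those with the deletion (filled points), and the right panel plots the percentage of tags with the deletion with its 95% Wilson interval, colored by role. PSMA3 (1112) and PSMC2 (1089) have the most deletions, PSMA7 the most tags (46031), and PSMD8 and PSMB1 the highest percentages (15.6% and 11.3%).

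The sites lay close to annotated transcript ends. Measured to the next annotated end of its gene, a 3′UTR site had a median distance of 23 nt (quartiles, 13 and 43), against 34 nt (quartiles, 16 and 235) over all 21230 sites in 3′UTRs. Within 100 nt of an end lay 112 of 137 sites (81.8%, 74.4 to 87.3), against 69.3% of all. They belonged to 31 of the 48 genes (64.6%), against 25.8% of all protein-coding genes. Ribosomal protein genes gave a median of 19 nt and the chaperonin genes of 23 nt. In library preparation, the RNA was trimmed by RNase, a poly(A) tail was added, and RNA was captured and primed through oligo(dT), and natural poly(A) tails can take part in the last of these steps. Their part in the distances was not tested.

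Of the 33 lead sites, 29 lay within 100 nt of an end (87.9%, against 74.9% over the lead sites of all genes). Of these, 22 lay within 100 nt of the end of the representative transcript (66.7% of the 33, against 55.7% over all genes). The lead sites of PSMA2, PSMA4, PSMA5, PSMC4, PSMC6, PSMD11 and PSME3 lay near the end of another annotated transcript only (7 of 33, 21.2%, against 19.3% over all genes). The lead site of PSMA4 was 14 nt from such an end and 3255 nt from the representative end, and that of PSMA5 25 nt and 2833 nt. In PSMD11 the distances were 7 nt and 2302 nt, in PSMC6 15 nt and 615 nt, and in PSMA2 15 nt and 567 nt. Which transcript the tags came from cannot be told apart, since these sites also lie within the representative 3′UTR.

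**Figure D3:**
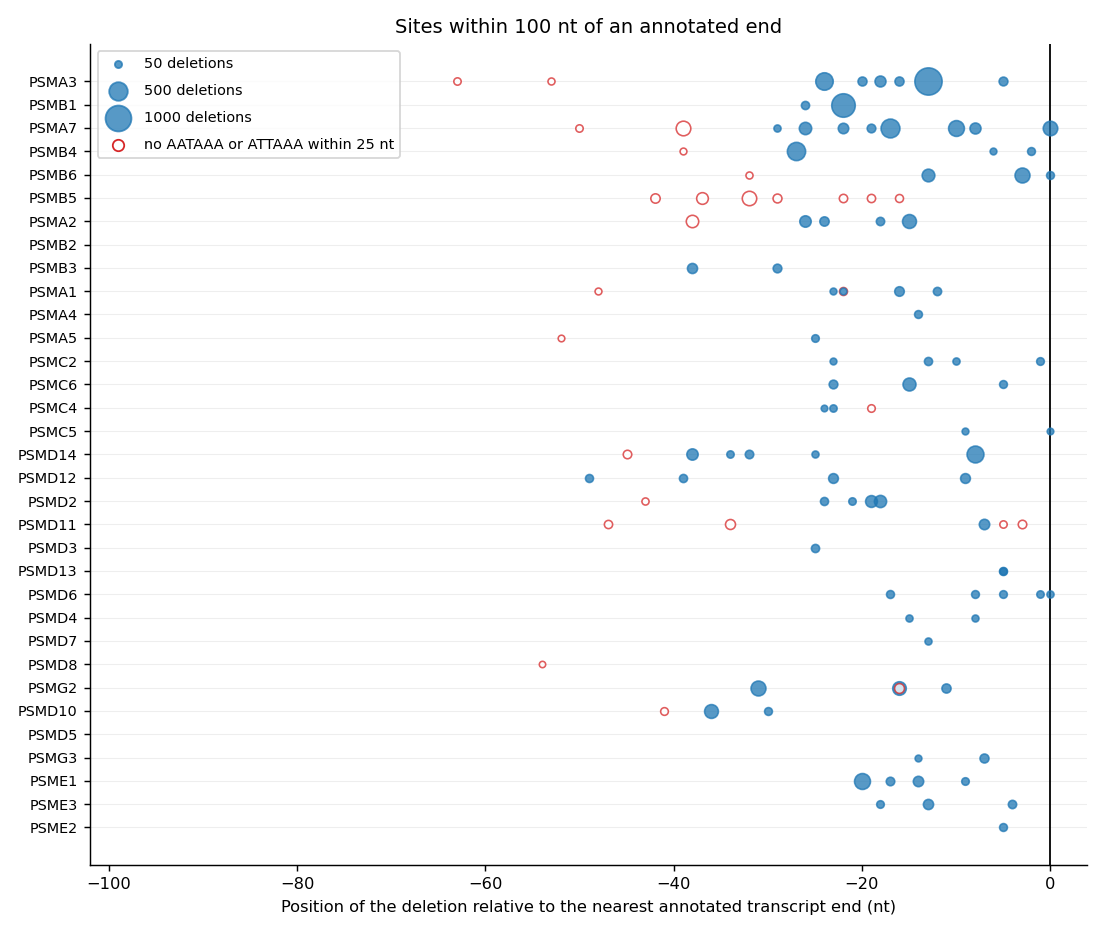
Each point is a 3′UTR site within 100 nt of an annotated transcript end, placed by its distance in nt upstream of that end (0, vertical line), with its area scaled to its deletions and with open points for sites that have no AATAAA or ATTAAA within 25 nt. Sites of PSMA3, PSMA7 and PSMB1 are the largest, all 7 sites of PSMB5 are open, and PSMB2 and PSMD5 have no point because their sites lie farther away.

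Poly(A) signals were counted in a window of 51 nt, 25 nt on each side of the deleted base, on the transcript strand only. AATAAA or ATTAAA occurred in 106 of 137 windows (77.4%, 69.7 to 83.6), against 65.4% of the windows of all 3′UTR sites, and AATAAA alone in 86 (62.8%), against 52.6%. At lead sites 30 of 33 windows (90.9%) held either hexamer, against 74.1% over all genes, with AATAAA in 24 and ATTAAA without AATAAA in 6. Those 6 were PSMA3, PSMB1, PSMB2, PSMD7, PSME3 and PSMG3, and the 3 with neither were PSMB5, PSMC4 and PSMD8. A match is a description of the letters and does not show that the hexamer was used.

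The deletion fell on either side of the hexamer. Of the 106 sites with a signal, the deletion was upstream of it at 47 (44.3%), inside it at 21 (19.8%) and downstream of it at 38 (35.8%), against 46.3%, 16.3% and 37.4% over all 3′UTR sites. At the lead sites of PSME1 and PSMA7 the deleted base was an A of the leading AA of AATAAA. Which A of that pair was lost cannot be told. In PSMA7 the 10 3′UTR sites ran from 50 nt to 0 nt from the nearest annotated end, with sites both before and after the AATAAA.

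Among the 31 windows without either hexamer, 19 had it within 50 nt of the deletion. These included the PSMC4 lead site, with AATAAA 29 nt downstream, and that of PSMD8, with AATAAA 40 nt downstream. In PSMB5 none of the 7 sites had AATAAA or ATTAAA within 50 nt, nor any hexamer that differs from AATAAA at 1 base within 25 nt. Its sites lay 16 to 42 nt from the nearest annotated end, with 68 to 289 deletions in 9390 to 31606 tags, and 6 of the 7 deleted bases were T. As the printed sequence shows, its lead site sits in a run of T-rich letters.

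The AUA motif of the study was searched as A, G or T, then A or T, then ATA, then A or T, then A, which overlaps AATAAA when a base other than C precedes that hexamer. It occurred in 68 of 137 windows (49.6%, 41.4 to 57.9), against 51.7% of all 3′UTR sites. Matches that do not contain AATAAA occurred in 29 windows (21.2%, 15.2 to 28.7), against 15.5%. These windows lay in PSMA2, PSMC2, PSMC6, PSMD5, PSMD6, PSMD12, PSMD14 and PSME1. Windows of neighbouring sites overlap, so the same match can be counted at several sites, which the interval does not allow for. At lead sites such a match occurred in 6 of 33 windows (18.2%), against 14.2% over all genes. Lead sites with such a match were those of PSMA2, PSMC6, PSMD5, PSMD6, PSMD12 and PSME1. The lead-site windows of PSMA3, PSMB1 and PSMA7, with 3 of the 4 highest deletion counts at lead sites, had no match to the motif, and that of PSMC2 had a match only together with AATAAA.

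The deleted base was T at 87 of 137 sites (63.5%, 55.2 to 71.1), against 65.5% of all 3′UTR sites. It was A at 28 (20.4%, against 21.5%), and C and G at 11 each (8.03%, against 7.12% for C and 5.91% for G). Of the 87 deleted T bases, 81 had another T beside them (93.1%, against 91.3%). Within a run of a base the aligner cannot tell which copy was lost, so the position is exact only to the run. Of the 21 sites whose deleted base differs from both neighbours, 28.6% had a deleted T (13.8 to 50). The same share over all 3′UTR sites was not computed, so the lower value is not shown to be particular to these genes. The lead sites of PSMC2 and PSMB2 had a deleted C.

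When neighbouring sites no more than 50 nt apart were merged, the 137 sites formed 42 clusters. A single cluster was found in 26 genes, 2 clusters in 5 genes and 3 in PSMB2 and PSMC2. The 7 genes with 2 or more clusters were 14.6% of the 48, against 11.5% of all protein-coding genes. More than 100 nt upstream of the next annotated end lay 25 sites of 6 genes, PSMA5, PSMB2, PSMC2, PSMD5, PSMD11 and PSMD12. AATAAA or ATTAAA occurred in 21 of the 25 windows. Many of these windows overlap within a cluster and can hold the same hexamer. The share at such sites over the whole list was not computed. PSMB2 and PSMD5 had sites only beyond 100 nt.

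In PSMC2 the internal cluster had more tags and deletions than the cluster at the end. Its 7 sites, 1251 to 1285 nt from the end of the representative transcript, had 1896 deletions together and up to 27300 tags, and the 4 sites 10 to 43 nt from that end had 222 deletions and up to 3822 tags. The printed PSMC2 sequence, with AATAAA 8 nt downstream of the deletion, is from the internal cluster. PSMD12 had the same arrangement. Its 4 internal sites, 2597 to 2639 nt from the end, had 568 deletions and up to 29960 tags, and the 4 sites 9 to 49 nt from the end had 376 deletions and up to 12266 tags. In both genes the internal cluster thus had more tags and deletions than the cluster at the end, and both clusters had an AATAAA or ATTAAA at their lead site. Percentages did not follow this order throughout. The lead sites had 4.22% internally and 3.31% at the end in PSMC2, and 0.981% and 1.02% in PSMD12. The other PSMC2 sites had 0.303% to 1.12% in the internal cluster and 1.4% to 2.45% in the cluster at the end.

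PSMB2 had 3 sites 2055 to 2069 nt from the end, with 340 deletions and up to 11832 tags, and 2 sites 2301 to 2314 nt from it, with 100 deletions and up to 3304 tags. The signal nearest to the deletion was ATTAAA in all 5 windows. The only PSMB2 site nearer to the end, at 132 nt, had 19 deletions in 23 tags. PSMD5 had 4 sites 310 to 340 nt from the end, with 512 deletions and up to 11730 tags. In PSMD11, 5 sites 2302 to 2404 nt from the representative end had 468 deletions, and 2 sites 1174 to 1180 nt from it had 110. The 5 sites lay near ends of other annotated transcripts, and not all near the same end. The PSMC6 sites 605 to 615 nt from the end had 294 deletions and up to 4142 tags, and the site 23 nt from the end had 87 deletions in 105 tags.

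**Figure D4:**
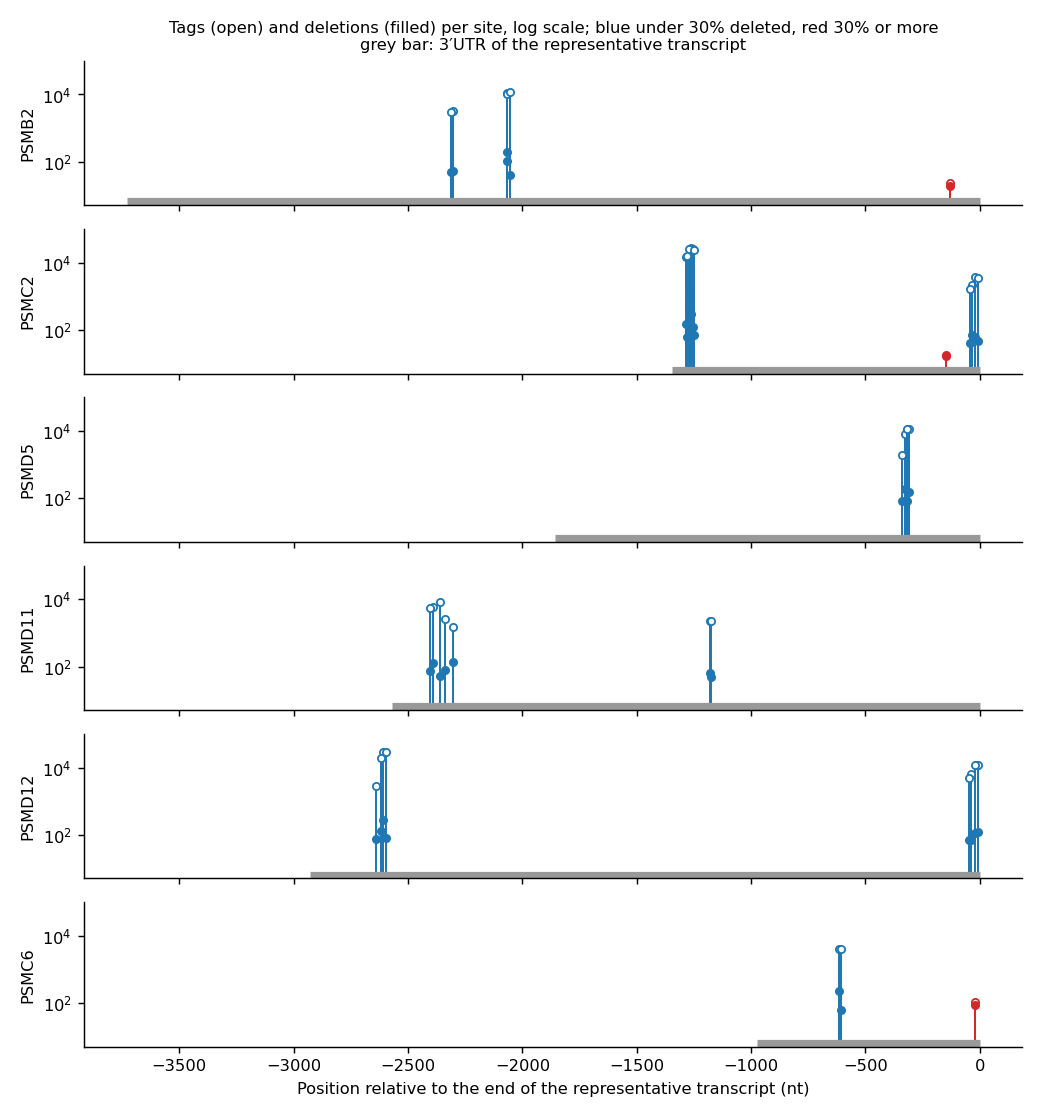
For 6 genes, each stem is a 3′UTR site, placed by its distance in nt from the end of the representative transcript (0), with open points for tags and filled points for deletions on a log scale, red for sites with deletions in 30% or more of their tags, and a gray bar for the representative 3′UTR. In PSMC2 and PSMD12 the left cluster is the taller (up to 27300 and 29960 tags, against 3822 and 12266 at the end), and the red sites of PSMB2, PSMC2 and PSMC6 have 105 tags or fewer.

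Deletions in 30% or more of the tags were found at 4 of the 137 sites (2.92%, against 12.9% of all 3′UTR sites, 3.33% in ribosomal protein genes and 1.92% in chaperonin genes), with no value between 19% and 78.4%. They were PSMC2 with 17 deletions in 18 tags (94.4%, 74.2 to 99), PSMC6 with 87 in 105 (82.9%, 74.5 to 88.9), PSMB2 with 19 in 23 (82.6%, 62.9 to 93) and PSMA5 with 29 in 37 (78.4%, 62.8 to 88.6). None was the lead site of its gene. Over the whole list, the 19426 sites below 30% all had at least 110 tags, whereas 8280 sites were at 30% or more.

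Tags were uneven within clusters. In 18 of 22 clusters with at least 3 sites, the site with the most tags lay downstream of the site with the fewest (81.8%, the same share as in the 2380 such clusters of the whole list). The step was steepest in the internal cluster of PSMD12, from 2795 to 29960 tags, followed by PSMB4, from 1170 to 8836. PSMD10, PSMD11, PSMD6 and PSME3 ran the other way. The lead site was the site with the most tags in 4 of the 22 (18.2%, against 28.3%), in PSMB6, PSMD14, PSMD2 and PSMD6, and the site with the highest percentage in 14 (63.6%, against 64.7%). Deletion counts and tag counts therefore ranked sites differently in most clusters.

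Other genes of the ubiquitin-proteasome pathway, outside the naming rule, had a 3′UTR site in 22 of 29 cases (75.9%), against 31.8% of all protein-coding genes. A 3′UTR site with 100 or more deletions was found in 9 (31%), against 13.5% of all. The 29 genes were picked by name, and these shares were not tested. UBB, a ubiquitin precursor, had 825 deletions in 31084 tags at its lead site, 13 nt from an end. Of the shuttle proteins that carry ubiquitinated substrates, UBQLN1 had 551 in 13204 tags and RAD23B 447 in 38261 tags, 1324 nt from an end. ZFAND5, which stimulates the proteasome, had 201 in 50664 tags, more tags than the lead site of any proteasome gene. Of the factors that drive proteasome gene transcription, NFE2L2 had 163 deletions in 6509 tags and NFE2L1 56 in 4469 tags, 554 nt from an end. Of the proteasome-bound and assembly proteins, USP14 had 198 deletions, the ubiquitin receptor ADRM1 145 and the maturation factor POMP 105. SEM1, PITHD1, PAAF1, DDI2, RPS27A, UBQLN2 and UBQLN4 had no 3′UTR site. RPS27A was also counted above among the ribosomal protein genes.

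The rule did not count 10 sites that lay on the opposite strand of the 48 genes or within 1000 nt of their 3′ ends. PSMD1 had a site 43 nt past its annotated end with 11 deletions in 11 tags, and PSMB1 a site 262 nt past its end with 7 in 7. On the opposite strand, a site with 81 deletions in 1496 tags in PSMB9 lies in an exon of TAP1, a site of 47 deletions in PSMA3 in an exon of PSMA3-AS1, and a site of 45 deletions in PSMG2 in an exon of CEP76. In PSMB7, 2 antisense sites of 87 and 49 deletions lay in no annotated exon. The last 3 sites, of 47, 41 and 32 deletions in 3232, 391 and 522 tags, lay 797 to 841 nt past the end of PSMB4 on the opposite strand, in exons of POGZ.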

How the data were processed

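FLAG-RBMS3 CLIP-seq sites from MDA-MB-231 cells (2 replicates, 1 group) were used. The authors appended molecular identifiers to reads and used the CLIP Tool Kit to align to hg38, pool unique tags of both replicates, and call crosslinking-induced deletions, filtered at a false discovery rate under 10% and a fold over 10, whose reference is not given in the sources used here. The aligner was not given in the sources used here. The deposited values are counts, not normalized: tags over each site and tags with the deletion. A total depth per library was not analysed here.

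Each interval is 21 nt and its central base was taken as deleted. Sites were placed by strand on all transcripts of GENCODE release 44, in the order 3′UTR, 5′UTR, coding sequence, other exon, intron. The distance is to the nearest downstream transcript end of the same gene. Shares have 95% Wilson intervals; sites of a gene are not independent. Signal and motif searches used 25 nt on each side. Other windows, definitions, filters on deletions and percentages, cluster rules and annotations were tried as alternatives, and 3 alternatives on transcript ends were chosen after seeing the data. No statistical test was run, since the design has 1 group of pooled replicates.

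The text accounts for all 48 genes, gives the lead 3′UTR site of each, and gives every site outside 3′UTRs or with 30% or more deletions. The gene members and lists were chosen with earlier results of these data known. Placement and search code, tested on simulated data, recovered 200 of 200 classes, 200 of 200 distances and 54 of 54 signal positions. Tools were samtools 1.23.1, Python 3.11.15, matplotlib 3.10.9, pandas 2.3.3, pysam 0.24.0, numpy 2.4.6, intervaltree 3.1.0 and scipy 1.17.1.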

Additional observations from a re-analysis of the deposited data

How the results depend on the processing

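Of 108 alternatives over 8 results, 79 left the value within its interval, or the count of genes within 1.5 times. No paired analysis was possible because both replicates form 1 group and were pooled before sites were called, and for the same reason neither replicate could be left out. A minimum of 10% of tags with the deletion left 7 genes with a 3′UTR site, a 3′UTR share of 46.7%, and, over 7 sites, a median distance of 54 nt, 57.1% within 100 nt of an end, 57.1% with a poly(A) signal, 14.3% with the AUA motif, 42.9% with a deleted T and a median deletion percentage of 78.4%. The 3′UTR share was 98.5% for a minimum of 20 deletions, 100% for 50, 99.3% below 30% of tags and 82.4% with 1 site per cluster of 50 nt. With 1 site per gene, the median distance was 17 nt, 87.9% lay within 100 nt of an end, 90.9% had a signal and the median deletion percentage was 2.32%. That percentage was 2.79% and 2.18% with 1 site per cluster of 50 and 10 nt. To the representative end, an alternative chosen after seeing the data, the median distance was 35 nt and 65.7% lay within 100 nt. The signal share was 88.1% with 1 site per cluster of 50 nt, 40.9% within 10 nt, 91.2% within 50 nt, 62.8% for AATAAA alone and 86.1% for all 19 hexamers within 1 base of AATAAA. The AUA share was 23.4% within 10 nt, 21.2% without matches that hold AATAAA and 73.7% for its core. Of 21 sites whose deleted base differs from both neighbours, 28.6% had a deleted T. Narrower windows and stricter motifs hold fewer matches by construction, and the cause of the other shifts was not tested. Counting error limits sites with few tags.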
